A study of Mus musculus with 64 samples.

Results

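Ebi3 and 5 receptor chains of the interleukin-12 and interleukin-6 cytokine family (Il12rb1, Il12rb2, Il27ra, Il6st and Il6ra) were followed in a restimulation time course of mouse CD4 T cells. The 6 genes were taken by symbol from the deposited time-course table, which lists 23134 genes. All 6 passed the filter on low counts that left 16140 genes for testing. The study compared T cells that lack the RNA-binding proteins Roquin (Rc3h1 and Rc3h2) or Regnase-1 (Zc3h12a), or both, with control cells. Both kinds of protein bind stem-loops in the 3′ ends of messenger RNAs and promote their decay. The CD4 T cells came from spleens of C57BL/6J mice whose age the labels do not give. All 4 genotypes carry Cd4-Cre-ERt2, a tamoxifen-inducible Cre recombinase driven by Cd4. The group WT is labelled with this allele alone. DKO adds floxed Rc3h1 and Rc3h2 alleles, KO adds floxed Zc3h12a alleles, and TKO adds the floxed alleles of all 3 genes. Deletion was induced in culture with 4'-OH-tamoxifen. The cells were activated with anti-CD3/28 under Th1 conditions and kept in IL-2 medium. They were then sampled before (0 h) or after a renewed stimulation with anti-CD3/28 of 1, 2 or 4 h. Each of the 16 groups of genotype and time had 4 libraries of total RNA. Nothing in the labels ties the 4 libraries to different mice or cultures. The p-values therefore reflect only how far these libraries spread, which may be a technical spread.

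The cytokines of this family are built from shared parts. Ebi3 is a secreted, receptor-like subunit that pairs with p28, the product of Il27, to form IL-27, and with p35, the product of Il12a, to form IL-35. Il12rb1 and Il12rb2 are the chains of the IL-12 receptor, and IL-12 drives Th1 differentiation through STAT4. Il27ra pairs with gp130, the product of Il6st, to receive IL-27, which signals through STAT3 among others. Il6ra binds IL-6 and then also engages gp130. T cells use these receptors to read cytokines of antigen-presenting cells, and regulatory T cells are a known source of Ebi3.

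The proximal promoters of Ebi3 and Il12rb2 are shown because Ebi3 differed most between genotypes and Il12rb2 had the highest level per length, so that the shared and differing motifs around their starts can be seen. RefSeq promoter sequences of build GRCm38.p6, each 300 bases from 250 before to 50 after the start, were matched by symbol for 4 of the 6 genes (Ebi3, Il12rb2, Il6st and Il6ra). The sequences are written 5′ to 3′ on the strand of the gene, and capitals mark matches to the motifs searched. The Ebi3 window is chr17:55952373-55952672 on the plus strand, and the Il12rb2 window is chr6:67376139-67376438 on the minus strand.
Ebi3: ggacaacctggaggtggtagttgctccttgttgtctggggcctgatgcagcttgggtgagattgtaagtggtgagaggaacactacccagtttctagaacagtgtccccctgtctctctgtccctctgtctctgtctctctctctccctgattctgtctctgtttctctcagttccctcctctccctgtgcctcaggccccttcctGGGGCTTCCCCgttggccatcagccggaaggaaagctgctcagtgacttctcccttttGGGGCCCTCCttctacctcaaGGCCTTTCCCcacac
Il12rb2: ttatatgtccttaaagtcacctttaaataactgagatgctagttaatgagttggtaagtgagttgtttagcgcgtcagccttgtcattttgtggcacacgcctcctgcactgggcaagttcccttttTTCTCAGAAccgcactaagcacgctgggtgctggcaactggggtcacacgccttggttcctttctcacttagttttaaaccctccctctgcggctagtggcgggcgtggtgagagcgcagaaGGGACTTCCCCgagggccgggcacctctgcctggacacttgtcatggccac

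5 motifs were searched on both strands in the 4 windows. The NF-kB motif (GGG, 5 bases of any kind, then CC) had 4 matches in the Ebi3 window, some of which overlapped each other, and 2 in Il12rb2, 1 in Il6st and 2 in Il6ra. At least 1 match is present in 50.8% of the 32851 promoters in the reference table, at least 2 in 27.4% and at least 4 in 6.65%. The STAT motif TTCNNNGAA had 1 match, in Il12rb2, and is present in 8.3% of the promoters. The AP-1 motif TGANTCA (7.81% of promoters), the NFAT motif TTTTCC (23.4%) and the interferon-response core (GAAA on either side of 2 bases of any kind, 3.44%) had no match in the 4 windows. These matches describe the letters only.

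In the annotation used (GENCODE M21, build GRCm38), Ebi3 (ENSMUSG00000003206) spans chr17:55952640-55957022 on the plus strand. Il12rb1 (ENSMUSG00000000791) spans chr8:70808449-70821424 on the plus strand, and Il27ra (ENSMUSG00000005465) spans chr8:84030294-84042589 on the minus strand. Il12rb2 (ENSMUSG00000018341) spans chr6:67291318-67376188 on the minus strand. Il6st (ENSMUSG00000021756) spans chr13:112464070-112510086 on the plus strand, and Il6ra (ENSMUSG00000027947) spans chr3:89864059-89913196 on the minus strand. The strand setting of the counting is not given in the sources used here, so reads from overlapping genes on opposite strands cannot be told apart. Ebi3 shares 270 exonic bases with the opposite-strand gene Gm16712, which had 443 reads in all libraries against 5415 for Ebi3. Il12rb2 shares 1519 exonic bases with the opposite-strand gene Serbp1, which had 214393 reads against 90378 for Il12rb2. Il27ra shares 2 exonic bases with Palm3, which had 274 reads, and Il6ra shares 242 with Gm42809, which was not analysed here.

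Hairpins with a loop of 3 bases are among those that Roquin and Regnase-1 recognise, and no other loop size was searched. The longest annotated 3′UTR of each gene was searched for a stem of at least 5 Watson-Crick pairs around a pyrimidine-purine-pyrimidine loop. None of the 6 genes held one, and 24.5% of the 13559 tested genes with an annotated 3′UTR did. Among tested genes with a 3′UTR of similar length (between 4/5 and 5/4 of its length), the share with such a hairpin was 5.6% at the 245 bases of Ebi3, 63.3% at the 5641 bases of Il6st and 71.0% at the 7102 bases of Il6ra. When G-U pairs were also allowed, Il12rb1 held 1 hairpin, Il6st 4 and Il6ra 9, and 64.2% of all those genes held at least 1. Among tested genes of similar 3′UTR length, 51.4% held at least 1 for Il12rb1 and 99.5% for Il6st. For Il6ra every such gene did, so the hairpins of Il6st and Il6ra are usual for 3′UTRs this long. Ebi3, Il12rb2 and Il27ra held none, where 22.3%, 60.9% and 55.0% of genes of similar length held at least 1. The single one of Il12rb1 and the longest one of Il6st show the form of these matches, with the loop in capitals. They lie at chr8:70820942-70820954 and chr13:112506895-112506911, both on the plus strand.
Il12rb1: tatttTATagatg
Il6st: cctggctTGTggccagg
A match, or the lack of one, describes these letters and does not show binding.

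The recovered total reads per library were 5369873 to 11666610, with a median of 7720297. Levels below are normalized counts, which are the deposited values rescaled to this median library. A level of 1 is therefore about 1 read at the median depth. Rc3h1 was 56.8 to 85.11 CPM (counts scaled to library totals) in the 16 DKO libraries and 56.72 to 84.64 in the 16 TKO libraries, and 81.05 to 192.6 in WT. Rc3h2 had medians of 93.6 CPM in DKO and 103.9 in TKO against 76.7 in WT. Zc3h12a had medians of 30.6 in KO and 30.8 in TKO against 41.1 in WT, and was higher in DKO, with a median of 72.1. These whole-gene counts include exons outside the deleted parts, so they do not check the labels by themselves. Markers of CD4 T cells summed to 325 to 1004 CPM, and all 5 were above 0 in every library. The myeloid list summed to 0.9926 to 8.629 CPM in single libraries and the NK cell list to 0 to 1.648. Lyz2, the myeloid marker most often at 0, was at 0 in 53 libraries. Ncr1, the NK cell marker most often at 0, was at 0 in 41. At each time 1 KO library had the highest summed CD8 and B cell markers of its group (41.36 to 55.95 and 9.264 to 16.3 CPM).

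Libraries also deviated together when sorted into 4 sets. The search put 1 library of every group in each set by design and sought the highest correlation within sets. The sets were found from deviations over 9577 genes (mean correlation 0.451 within a set and -0.146 between sets), and are not named in the labels. The search itself raises the first value, and centring on group means lowers the second. Ebi3 and Il12rb2 were among the genes searched, so their values below are not independent of the sets. The sets touched 2 of the 6 genes most. Il12rb2 was above its group mean in 16 of the 16 libraries of the fourth set and in 1 of the 16 of the third, with mean log2 deviations of 0.53 and -0.55. Ebi3 was above its group mean in 15 of the 16 libraries of the fourth set, with a mean log2 deviation of 0.44. These deviations move up and down within every group and add to the spread of both genes.

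**Figure D1:**
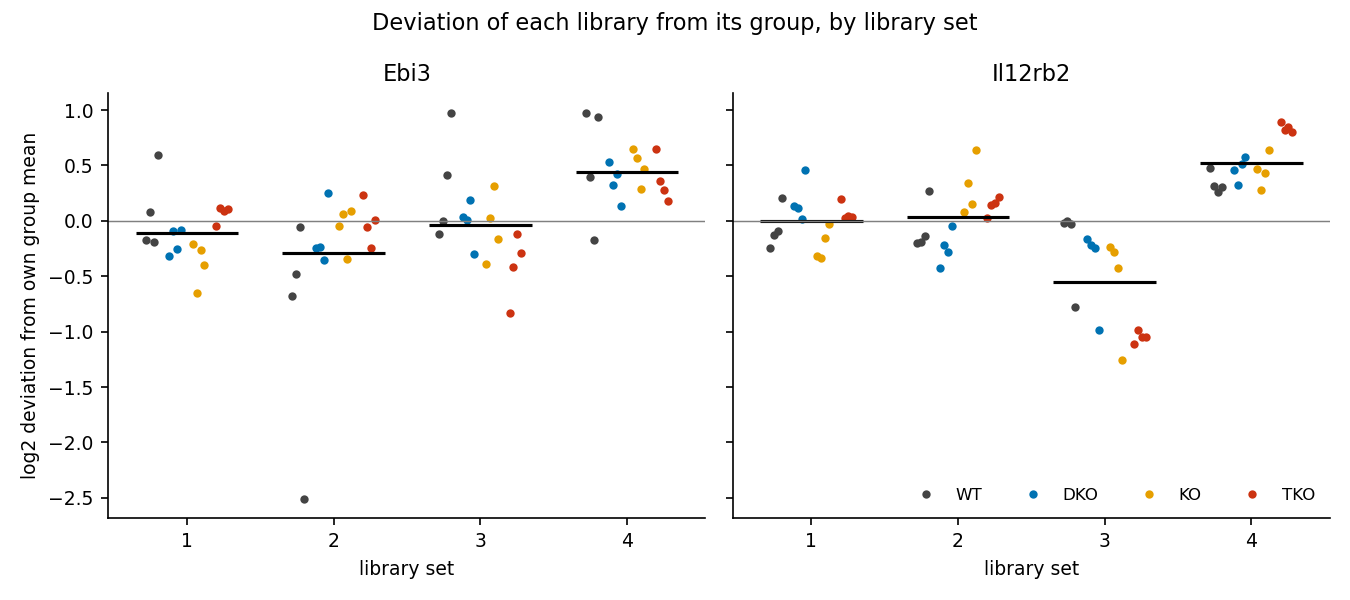
Deviation of each library from its own group mean on the log2 scale for Ebi3 and Il12rb2, with libraries arranged by the 4 sets found from all genes (16 libraries per set). Il12rb2 libraries of the fourth set lie above 0 throughout, with a mean of 0.53, and those of the third set lie mostly below it, with a mean of -0.55.

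Per length, the 6 receptors and subunits were present at unequal levels in unstimulated WT cells. Il12rb2 had 306 ± 76.0 normalized counts per kb of exon (SD, n = 4), followed by Il27ra with 88.5 ± 11.6, Il6ra with 66.9 ± 14.4, Il6st with 54.7 ± 1.64 and Il12rb1 with 35.9 ± 12.8. Ebi3 was the lowest at 6.67 ± 4.06 per kb. In unstimulated TKO cells Ebi3 stood at 169 ± 66.7 per kb. Over the 16 groups the highest group mean was 44.9 times the lowest for Ebi3, 14.2 times for Il6ra, 7.03 times for Il6st, 3.83 times for Il12rb1, 3.55 times for Il12rb2 and 1.52 times for Il27ra.

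Ebi3 was nearly silent in WT cells and was higher in every knockout at every time. The normalized counts in WT were 6.033, 3.937, 6.279 and 14.54 in the 0 h libraries, 9.109, 12.3, 9.675 and 6.266 in the 1 h libraries, 4.05, 4.557, 6.658 and 4.12 in the 2 h libraries, and 0, 7.57, 9.898 and 10.17 in the 4 h libraries. These levels rest on 19 to 38 reads per group of 4 libraries, so WT sits close to the limit of what this depth resolves. In DKO they were 155.8, 128.4, 220.5 and 122.0 in the 0 h libraries, 158.6, 197.8, 148.2 and 134.4 in the 1 h libraries, 85.98, 147.9, 91.9 and 125.9 in the 2 h libraries, and 54.26, 42.96, 50.09 and 36.78 in the 4 h libraries. In TKO they were 177.5, 286.9, 215.5 and 102.2 in the 0 h libraries, 205.4, 230.6, 274.8 and 159.4 in the 1 h libraries, 169.7, 186.1, 214.2 and 245.0 in the 2 h libraries, and 122.0, 149.6, 168.5 and 160.2 in the 4 h libraries. DKO and TKO libraries stood far above every WT library at all 4 times. In KO they were 24.54, 40.31, 21.87 and 19.15 in the 0 h libraries, 30.18, 44.26, 18.48 and 31.06 in the 1 h libraries, 17.49, 18.67, 27.79 and 28.34 in the 2 h libraries, and 13.44, 16.16, 11.24 and 21.35 in the 4 h libraries. The KO libraries formed a middle tier that did not overlap WT at any time.

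**Figure D2:**
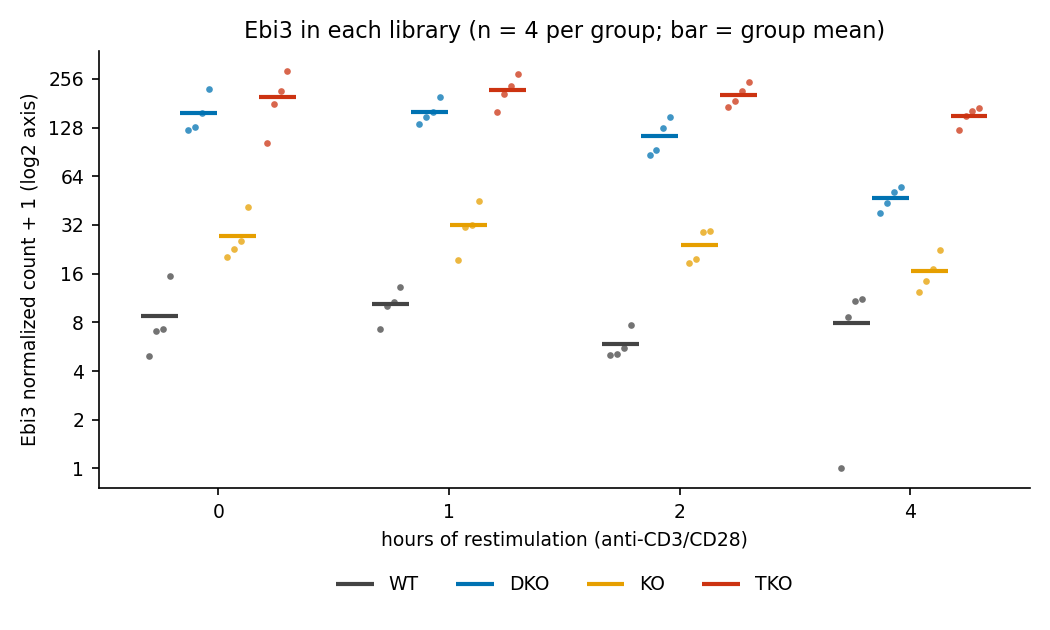
Ebi3 normalized count plus 1 in each library on a log2 axis, by hours of restimulation and genotype, with 4 libraries per group as points and the group mean as a bar. WT libraries lie between 0 and 14.54, KO libraries between 11.24 and 44.26, and DKO and TKO libraries between 85.98 and 286.9, apart from the DKO libraries at 4 h (36.78 to 54.26).

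In cells without Roquin, Ebi3 exceeded WT by 4.28 ± 0.39 on the log2 scale at 0 h (SE, n = 4 per group, limma, adjusted p = 4.94e-12), which is 19.4-fold. The difference was 3.98 at 1 h, 4.27 at 2 h and 3.03 at 4 h, with a highest adjusted p of 2.82e-07. Fold changes of a gene this low are on the log2(value + 1) scale and are not ratios of group means. The added 1 shrinks them, and at 4 h the WT library at 0 enlarges them. Of the 24 tests of the 6 genes in DKO against WT, 7 were called and all were higher. These were the 4 of Ebi3, 2 of Il12rb1 and 1 of Il6ra, where 5.98% of all gene tests in this comparison were called higher and 1.69% lower. The comparisons of DKO, KO and TKO with WT share the WT libraries.

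Cells without Regnase-1 differed by less. KO exceeded WT by 1.74 ± 0.39 at 0 h (limma, adjusted p = 0.00619), 1.60 at 1 h (0.0122), 2.03 at 2 h (3.19e-04) and 1.51 at 4 h (0.00344), or 2.84- to 4.09-fold. Of the 24 tests in KO against WT 8 were called, all higher, beside 7.34% of all gene tests called higher and 3.34% lower. These shares were uneven over time, with 186, 295, 755 and 3503 of 16140 genes called higher at 0, 1, 2 and 4 h. At 4 h, where Ebi3, Il12rb1 and Il6ra were called, the median difference of all genes was 0.22. The Ebi3 difference at 4 h depended on the WT library at 0. Without it the value was 0.67, and the adjusted p from limma was 0.0841. With only the 2 groups of the contrast in the fit, the differences at 0 h and 4 h also missed the threshold, with adjusted p of 0.13 and 0.112. Voom on the recovered reads called neither 0 h nor 1 h (adjusted p 0.0764 at 1 h). The calls at 0 h and 1 h were each lost without either of 2 single libraries (limma, adjusted p up to 0.0599 and 0.0756). The call at 2 h was kept in every setting and with every library left out.

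Cells without both kinds of protein had the highest means of Ebi3 at each time. TKO exceeded WT by 4.54 at 0 h, 4.41 at 1 h, 5.14 at 2 h and 4.72 at 4 h, with SE of 0.39 each (limma, highest adjusted p = 3.42e-13), or 21.2- to 35.2-fold. Of the 24 tests in TKO against WT 10 were called, all higher. In that comparison 20.7% of all gene tests were called higher and 16.8% lower. With all times pooled, a call there is therefore less unusual than in the other 2. At 4 h alone 4421 of 16140 genes were called higher in TKO and 3503 in KO. In the authors' deposited table the log2 changes of Ebi3 at 0 h were 3.276 in DKO (false discovery rate 0.002), 0.969 in KO (0.14) and 4.131 in TKO (9.77e-04). The authors' deposited table does not call KO at 0, 1 or 4 h, where its false discovery rates were 0.14, 0.068 and 0.498.

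The tiers of Ebi3 were also compared directly. DKO exceeded KO by 2.54 at 0 h (limma, adjusted p = 2.2e-05), 2.38 at 1 h, 2.24 at 2 h and 1.53 at 4 h (0.0159). These 4 were the only calls among the 24 tests of the 6 genes in DKO against KO, beside 0.894% of all gene tests called higher. The one at 4 h was lost without the KO library that was highest in CD8 and B cell markers at that time (1.40, adjusted p 0.0632). TKO exceeded KO by 2.80 to 3.22 at the 4 times (limma, highest adjusted p = 5.51e-07), which made up 4 of the 6 calls among 24 tests, beside 6.55% of gene tests called higher.

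TKO and DKO differed in Ebi3 at the last time. TKO minus DKO was 0.26 at 0 h (limma, adjusted p = 0.703), 0.43 at 1 h (0.6) and 0.87 at 2 h (0.185, 95% interval 0.08 to 1.65). At 4 h TKO stood at 150 ± 20.3 and DKO at 46.0 ± 7.73 (SD, n = 4), a difference of 1.69 ± 0.39 with an adjusted p of 0.00268 and no overlap of libraries. At 2 h the libraries did not overlap either, although the test was not passed. With voom on the recovered reads the 2 h difference was 0.85 and was called (adjusted p 0.0126). Of the 24 tests of the 6 genes in TKO against DKO 3 were called, all higher, beside 5.51% of gene tests. Ebi3 did not depart from the sum of the single effects at a called level. TKO minus DKO minus KO plus WT was -1.47 ± 0.55 at 0 h (adjusted p = 0.231), -1.17 at 1 h (0.682), -1.16 at 2 h (0.707) and 0.18 at 4 h (0.977). On the deposited scaling the value at 0 h was -1.96 and was called (0.0226). In the fit reported here no test of this kind was called for the 6 genes (0 of 24, beside 0.333% of all gene tests). By limma 6 of the 24 had an unadjusted p under 0.05, and voom called 0.

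Of the restimulation tests of Ebi3 only that of DKO at 4 h was called. In DKO the mean fell from 157 ± 45.0 at 0 h to 46.0 ± 7.73 at 4 h, a change of -1.72 ± 0.39 (limma, adjusted p = 1.4e-04), and the libraries of the 2 times did not overlap. The same change was -0.48 in WT (adjusted p = 0.34), -0.71 in KO (0.107) and -0.30 in TKO (0.572). The fall in DKO was not shown to differ from that in WT, with an interaction of -1.24 ± 0.55 (adjusted p = 0.371). Without the WT library at 0 the interaction was -2.08 and was called (limma, adjusted p = 0.00376), so that 1 library decided it. On the deposited scaling the change in KO was -1.14 and was called (0.0129). In the order of the 16 group means of Ebi3 only 1 of the 15 neighbouring pairs had libraries that did not overlap, DKO at 2 h above DKO at 4 h. The opposite-strand neighbour Gm16712 was called in no knockout against WT contrast.

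**Figure D3:**
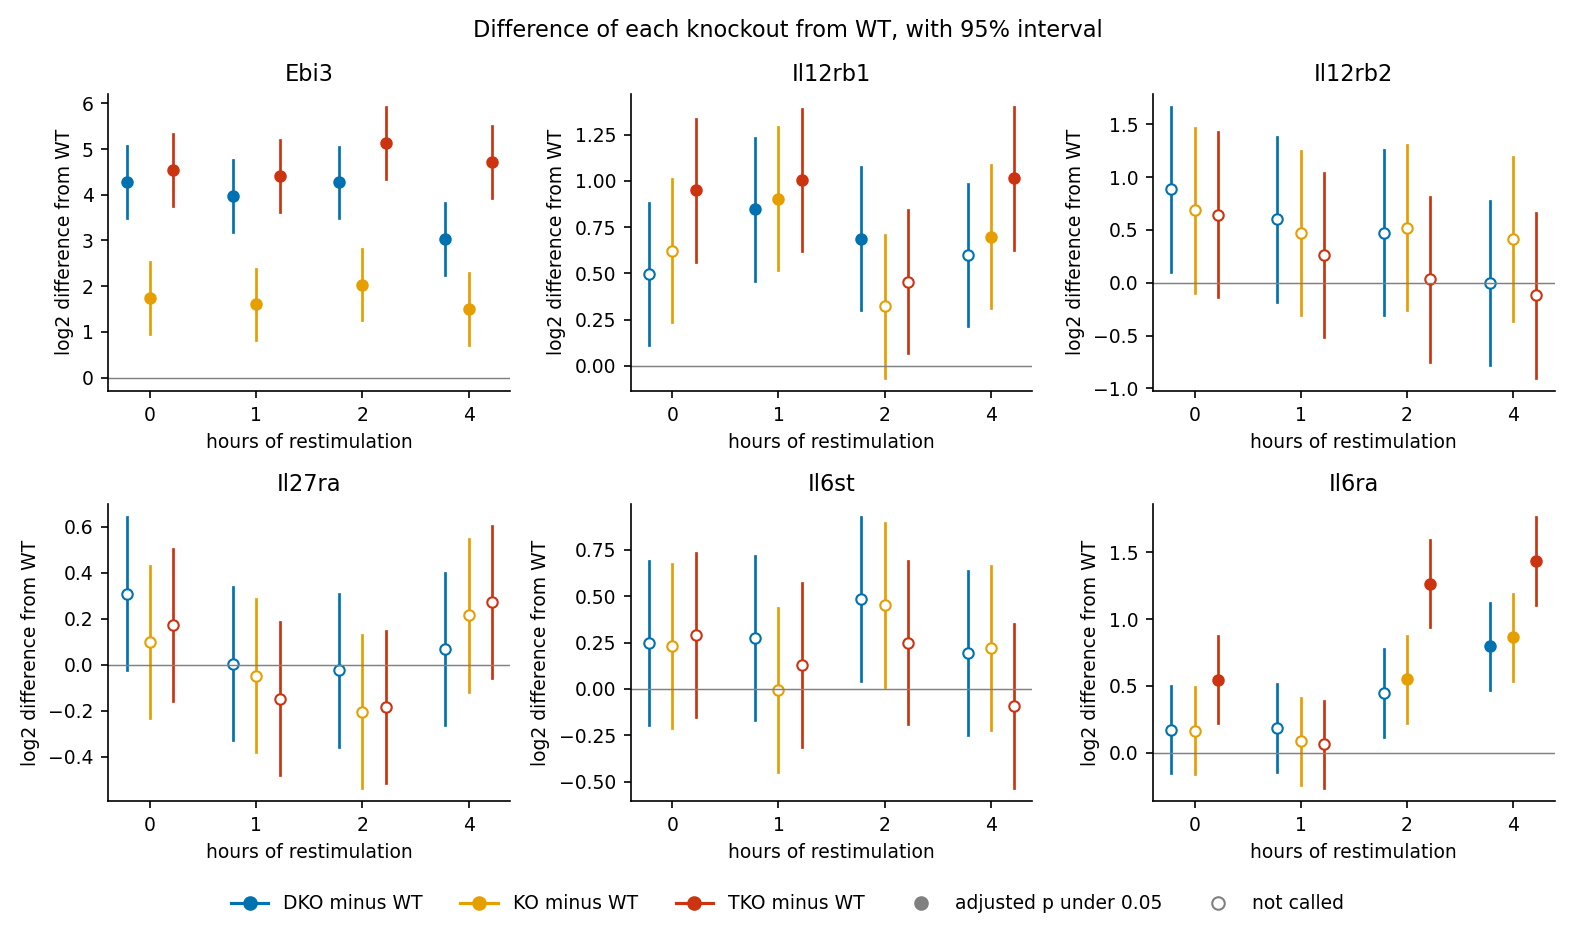
Difference of DKO, KO and TKO from WT on the log2 scale for each of the 6 genes at 0, 1, 2 and 4 h, with 95% intervals from limma (n = 4 libraries per group) and filled points for called tests. Ebi3 differences lie between 1.51 and 5.14, and those of the 5 receptor genes between -0.20 and 1.44.

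Among the receptor chains, Il12rb1, the chain shared by the IL-12 and IL-23 receptors, was higher in the knockouts, by up to 1.01 on the log2 scale. At 1 h the libraries had normalized counts of 155.9, 99.26, 151.9 and 119.7 in WT, 241.3, 207.7, 269 and 220.8 in DKO, 256.6, 270.1, 235.8 and 213.5 in KO, and 257.3, 269.5, 302.1 and 220.6 in TKO. All 12 knockout libraries were above all 4 WT libraries at that time. The differences from WT were 0.85 ± 0.19 in DKO (limma, adjusted p = 0.00207), 0.90 in KO (0.00243) and 1.00 in TKO (5.84e-05). At 0 h WT had 176.3, 139.3, 196.5 and 76.75 and TKO had 268.3, 318.5, 258.7 and 235.8, a difference of 0.95 (limma, adjusted p = 1.11e-04). The WT libraries at 0 h were spread widely, and the DKO and KO differences of 0.50 and 0.62 there had adjusted p of 0.105 and 0.101.

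Later in the time course only some of the Il12rb1 differences were called, and the largest was that of TKO at 4 h. At 2 h WT had 335, 355, 336.4 and 239.1 and DKO had 516.1, 464.3, 524.9 and 514.2, a difference of 0.69 (limma, adjusted p = 0.0139). KO and TKO exceeded WT by 0.32 (0.337) and 0.45 (0.056) at 2 h. At 4 h the differences were 0.60 in DKO (0.0511), 0.70 in KO (0.00539) and 1.01 in TKO (3.36e-05). With the library sets as a block, 3 differences of Il12rb1 from WT were called that are given above as not called. These were KO at 0 h (limma, adjusted p 0.0456), TKO at 2 h (0.0423) and DKO at 4 h (0.0275). The sets came from the same libraries, so these p-values may be too small. No difference of Il12rb1 between DKO, KO and TKO was called. On the deposited scaling the DKO difference at 2 h had an adjusted p from limma of 0.0581. Without the WT library of 239.1 that difference was 0.56 (0.0825). The KO difference at 4 h was lost on the deposited, upper-quartile and total reads scalings (0.41 to 0.49, highest adjusted p 0.134).

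Il12rb1 rose with restimulation in every genotype. From 0 h to 2 h it rose by 1.17 in WT (limma, adjusted p = 5.82e-07), 1.36 in DKO (1.72e-08), 0.87 in KO (1.12e-04) and 0.67 in TKO (0.00275). In WT this was a mean of 147 ± 52.6 going to 316 ± 52.3 (SD, n = 4), and in DKO 198 ± 27.6 going to 505 ± 27.5. At 4 h it was still above 0 h by 0.59 in WT, 0.69 in DKO, 0.66 in KO and 0.65 in TKO. On the deposited scaling the changes in DKO (0.41, limma, adjusted p 0.0649) and TKO (0.43, 0.0556) were not called. The change in KO was lost on the deposited and upper-quartile scalings (0.22 to 0.37, highest adjusted p 0.306). The WT change at 4 h rested on the lowest WT library at 0 h, without which it was 0.30 (adjusted p 0.172). At 1 h the change was -0.10 to 0.25, and none was called.

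Il12rb2, the chain that carries the STAT4-binding part of the IL-12 receptor, fell late in restimulation. At 0 h the libraries had 956.7, 989.9, 1119 and 1581 in WT, 1869, 1566, 2884 and 2304 in DKO, 1938, 2536, 1473 and 1555 in KO, and 2035, 3299, 1810 and 825 in TKO. At 4 h they had 741.1, 710.2, 759.1 and 358.3 in WT, 592.7, 845.7, 915.6 and 309.7 in DKO, 342.8, 1280, 806 and 1282 in KO, and 274.1, 656.4, 990.8 and 579.5 in TKO. WT, DKO and KO libraries at 4 h lay below all those of the same genotype at 0 h, and TKO libraries overlapped. The change was -1.77 ± 0.39 in DKO (limma, adjusted p = 9.61e-05), -1.16 in KO (0.00895), -1.65 in TKO (3.09e-04) and -0.89 in WT (0.0511). The fall in KO rested on 1 library, without which it was -0.74 (adjusted p 0.108). The overlapping gene Serbp1 moved the other way, with WT means of 1868 at 0 h and 4022 at 4 h and TKO means of 2223 and 4595.

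The knockouts did not differ from WT in Il12rb2 at a called level. The largest of the 12 differences was 0.88 in DKO at 0 h (limma, adjusted p = 0.167, 95% interval 0.10 to 1.66), and the intervals reached from -0.90 to 1.66 over all 12. The SE of 0.39 equals that of Ebi3 at a far higher level, and the spread followed the library sets. With the sets as a block the adjusted p from limma of the DKO difference at 0 h was 0.00969. That of the TKO difference of 0.65 at 0 h was 0.028. With the same block the WT fall at 4 h had an adjusted p of 0.00174. The sets were found from these same libraries, so p-values with this block may be too small. On the deposited scaling the DKO difference was 1.16 (0.0205).

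Il27ra, the specific chain of the IL-27 receptor, moved least. Its group means ran from 251 ± 55.2 in WT at 4 h to 382 ± 28.7 in DKO at 0 h (SD, n = 4). At 0 h the libraries had 346.6, 308, 329.2 and 253.3 in WT and 359.6, 421.5, 361.8 and 383.9 in DKO. These groups did not overlap, and the difference of 0.31 had an adjusted p of 0.273 (limma, 95% interval -0.02 to 0.64). No knockout difference of Il27ra was called. It fell after restimulation in DKO, by 0.45 at 1 h (adjusted p = 0.0295), 0.44 at 2 h (0.0215) and 0.56 at 4 h (0.00321). It also fell in KO at 2 h by 0.40 (0.0318) and in TKO at 1 h by 0.47 (0.0323) and at 2 h by 0.46 (0.0176). The WT changes of -0.15, -0.10 and -0.31 were not called, and no difference from the WT response was called. Leaving out single libraries lost each of these falls except that of DKO at 4 h.

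Il6st, which encodes gp130, the signal-transducing chain of the IL-6 and IL-27 receptors, rose early and returned. The normalized counts in WT were 631.1, 611.2, 599.5 and 588.7 in the 0 h libraries, 1754, 2442, 2785 and 2769 in the 1 h libraries, 2367, 2295, 1807 and 3476 in the 2 h libraries, and 511.8, 564.9, 594.7 and 471.7 in the 4 h libraries. The libraries at 1 and 2 h did not overlap those at 0 or 4 h. The rise was 1.98 ± 0.22 at 1 h (limma, adjusted p = 8.68e-11) and 1.99 at 2 h (2.3e-11) in WT, and the same 2 changes were 2.01 and 2.23 in DKO, 1.74 and 2.21 in KO, and 1.82 and 1.95 in TKO. At 4 h the change from 0 h was -0.19 in WT, -0.24 in DKO and -0.20 in KO, and none of these was called. In TKO it was -0.57 (limma, adjusted p = 0.0257), from 751 ± 118 to 502 ± 46.4. That call was lost when any 1 of 3 libraries was left out (adjusted p up to 0.0832). None of the 9 tests of a knockout response of Il6st against the WT response was called. No difference between a knockout and WT was called for Il6st, and the 95% intervals of the 12 differences lay between -0.53 and 0.93.

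Il6ra, the chain that binds IL-6, was well below its 0 h level at 4 h in every genotype, and it fell less in TKO than in WT. The normalized counts in WT were 535, 484.6, 761 and 531.5 in the 0 h libraries, 1024, 1074, 916.8 and 975.9 in the 1 h libraries, 291.1, 336.7, 261.1 and 361.8 in the 2 h libraries, and 89.45, 91.16, 79.42 and 59.45 in the 4 h libraries. In TKO they were 966.2, 812.9, 781 and 779.3 in the 0 h libraries, 1083, 1122, 1078 and 894.4 in the 1 h libraries, 788.4, 547, 773 and 934.1 in the 2 h libraries, and 185.7, 228.2, 223.2 and 225.3 in the 4 h libraries. TKO libraries were above all WT libraries at 0, 2 and 4 h, and the 2 genotypes overlapped at 1 h. At 4 h DKO had 196, 145.1, 126.3 and 99.41, and KO had 110.3, 165.6, 129.7 and 181.8. Both lay above WT. DKO overlapped TKO, and KO lay just below it. From 0 to 1 h Il6ra rose by 0.81 in WT (limma, adjusted p = 6.3e-05), 0.82 in DKO (5.05e-05) and 0.73 in KO (3.24e-04). In TKO the libraries of these times overlapped, and the change of 0.32 was not called (0.159). The change from 0 to 4 h was -2.84 ± 0.16 in WT (limma, adjusted p = 4.97e-22), -2.21 in DKO, -2.14 in KO and -1.95 in TKO (2.19e-15).

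Against WT, Il6ra was higher in TKO by 0.55 ± 0.16 at 0 h (limma, adjusted p = 0.00644), 1.27 at 2 h (1.55e-08) and 1.44 at 4 h (5.17e-10), and by 0.06 at 1 h. DKO exceeded WT by 0.80 at 4 h (8.71e-04), and KO by 0.55 at 2 h (0.0297) and 0.86 at 4 h (1.17e-04). TKO exceeded DKO by 0.82 at 2 h (5.62e-04) and 0.64 at 4 h (0.00636), and KO by 0.72 at 2 h (0.00188) and 0.57 at 4 h (0.0383). The weaker fall in TKO was tested as an interaction. The change to 4 h in TKO minus that in WT was 0.89 ± 0.23 (limma, adjusted p = 0.00927). It was the 1 call among the 54 tests of a knockout response against the WT response in the 6 genes, beside 1.74% of all gene tests. The same interaction was 0.70 in KO (0.0851) and 0.62 in DKO (0.225). With the library sets as a block that of KO was called (0.0278), and so was the 0.72 of TKO at 2 h (0.0228). Both p-values may be too small, because the sets came from the same libraries. On the deposited scaling the TKO value was 0.58 (0.104). The KO difference at 2 h and the TKO minus KO difference at 4 h were each lost under 4 or more of the settings tried.

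**Figure D4:**
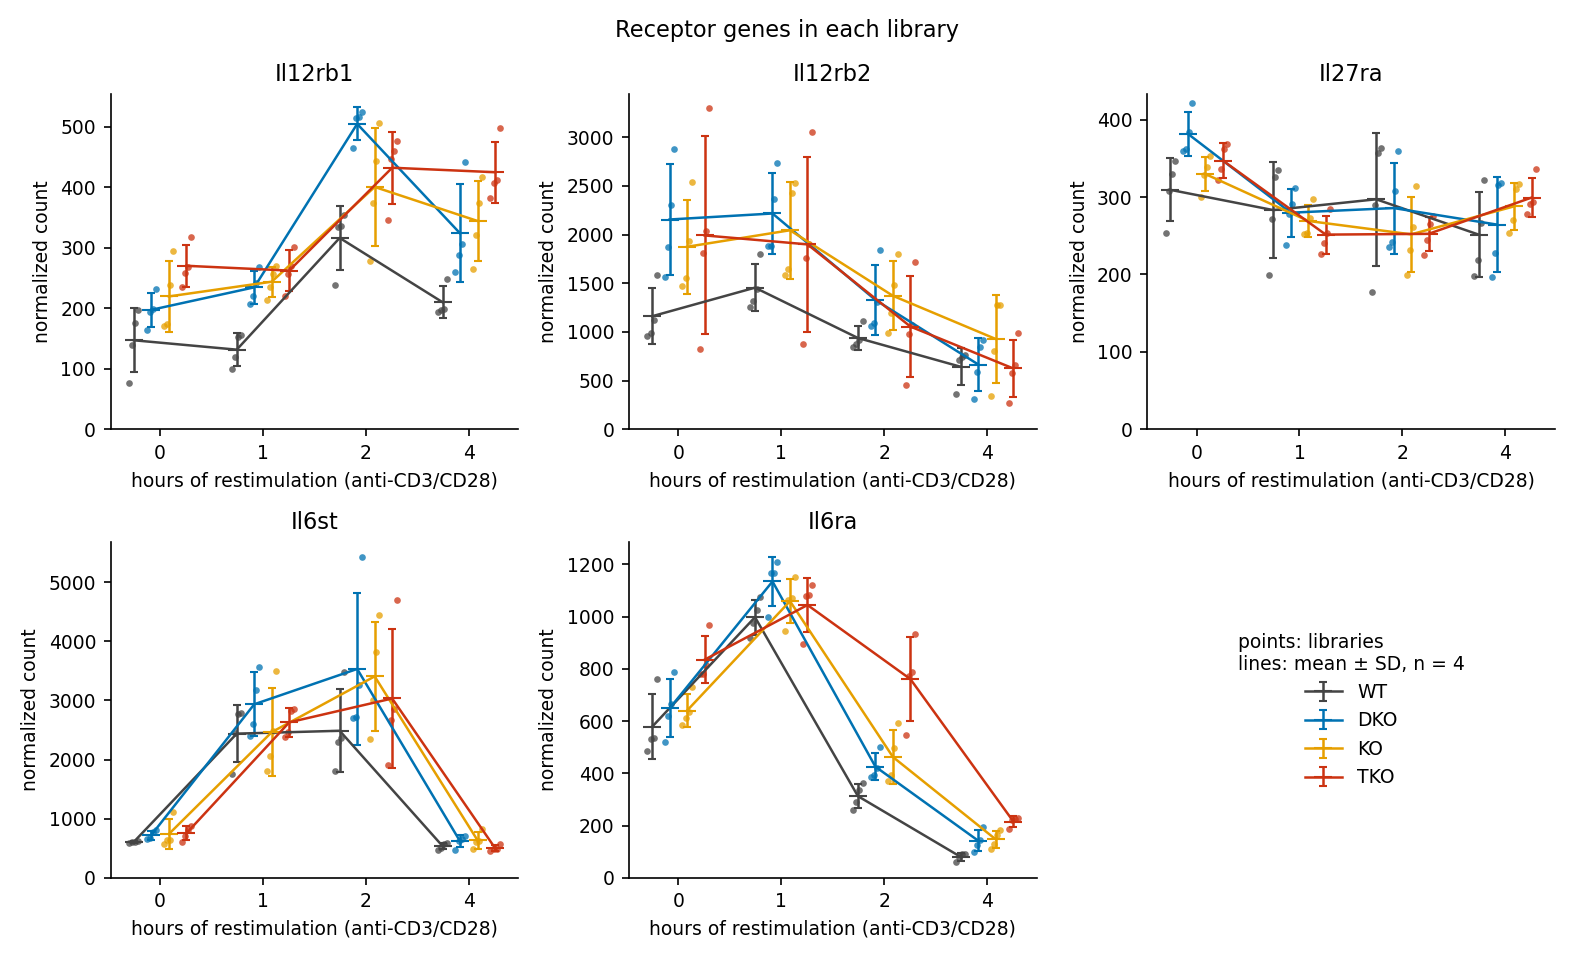
Normalized counts of the 5 receptor genes in each library by hours of restimulation and genotype, with points for libraries and lines for the mean ± SD of 4 libraries. Il6st peaks at 1 and 2 h (WT means 2438 and 2486 against 608 at 0 h), Il6ra peaks at 1 h and is lowest at 4 h (WT means 998 and 79.9), and Il12rb1 peaks at 2 h in WT, with a mean of 316.

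Counted over the genes and times, restimulation gave 7 calls of 18 in WT (5 higher, 2 lower), beside 23.3% of all gene tests called higher and 21.7% lower. In DKO it gave 12 (5 higher, 7 lower), beside 25.7% and 21.8%. In KO it gave 9 (5 higher, 4 lower), beside 27.4% and 22.0%, and in TKO 9 (4 higher, 5 lower), beside 21.6% and 18.5%. The 3 times of a genotype share its 0 h libraries. In the 144 tests of the 6 genes that the authors' deposited table also gives, 56 were called in that table and 62 here. In all, 52 were called in both, all in the same direction. Fewer cells of a type and less RNA per cell cannot be told apart in these bulk samples.

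The list of other genes of the pathway held 35, of which 29 were tested. Against WT, DKO gave 13 calls higher and 1 lower of 116 tests (11.2% and 0.862%), KO 16 and 2 (13.8% and 1.72%), and TKO 36 and 8 (31.0% and 6.9%). Over all gene tests the shares called higher and lower were 5.98% and 1.69% in DKO, 7.34% and 3.34% in KO, and 20.7% and 16.8% in TKO. The list's median log2 difference per contrast was 0.13 to 0.29 in DKO, 0.10 to 0.32 in KO and -0.03 to 0.20 in TKO, beside -0.04 to 0.07, -0.03 to 0.22 and 0.00 to 0.20 over all genes tested. In TKO against WT the calls were 8 higher and 6 lower of 28 for ligand subunits, 7 and 0 of 24 for kinases and STATs, 11 and 0 of 16 for feedback genes, and 10 and 2 of 28 for genes that respond to these cytokines, each to be read beside the 20.7% higher and 16.8% lower of all gene tests. The other receptor chains (Il23r, Lifr, Osmr, Il11ra1 and Il31ra) gave no call in 20 tests there. By limma 0 of these 20 had an unadjusted p under 0.05.

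Of the partners that bind Ebi3, Il12a (p35) was higher in DKO at 1, 2 and 4 h and in TKO at 1 and 2 h. It had 2 reads in the 4 WT libraries at 1 h, 49 in DKO and 58 in TKO. Relative to library totals these were 27.6 times (95% counting interval 7.24 to 234) and 32.2 times (8.53 to 272) the WT value. The log2 differences at 1 h were 3.38 in DKO (limma, adjusted p = 2.14e-05) and 3.49 in TKO (2.38e-06). DKO was also higher at 2 and 4 h, by 2.58 (0.00112) and 2.06 (0.0174), and TKO at 2 h by 1.81 (0.00837). At 0 h the differences of 1.02 in DKO (0.292) and 0.97 in TKO (0.17) were not called, nor was the 0.62 of TKO at 4 h (0.38). KO differed at no time at a called level, with changes of -1.03 to 1.13. Il12a held no Watson-Crick hairpin of the kind searched in its 3′UTR, and 1 when G-U pairs were allowed. Among tested genes of similar 3′UTR length 11.3% held the former and 41.8% the latter. The other partner, Il27 (p28), did not pass the filter, with 21 reads in TKO at 2 h and 8 in WT at 2 h. It also overlaps Apobr, which had 7317 reads in all.

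Il6, the ligand of Il6ra, was low everywhere and highest in TKO. It had 0 reads in WT and 18 in TKO at 1 h, which is at least 6.66-fold higher against a floor of 3 reads over the WT group. The log2 differences of TKO from WT were 1.70 at 0 h (limma, adjusted p = 0.0499), 2.28 at 2 h (0.00832) and 2.24 at 4 h (0.00804). Il23a (p19), a subunit of IL-23, was lower in TKO at 4 h by -1.95 (0.0153), with 3.88 ± 2.67 normalized counts against 16.2 ± 5.53 in WT (SD, n = 4).

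Among genes that respond to these cytokines, Il10, a suppressive cytokine that IL-27 induces in T cells, stood at 3.82 ± 1.93 in WT and 77.1 ± 39.7 in TKO at 0 h (SD, n = 4). The differences of TKO from WT were 3.94 at 0 h (limma, adjusted p = 7.32e-07), 2.70 at 1 h, 2.02 at 2 h and 2.00 at 4 h, and all were called. DKO was called at no time for Il10 (1.12, 0.75, 0.47 and 0.40), and KO only at 4 h (1.46, adjusted p = 0.0481). Without the KO library highest in CD8 and B cell markers the latter was 1.53 (0.0689). Il21, a helper cytokine that STAT3 induces, was higher in TKO by 2.00 at 1 h, 2.35 at 2 h and 3.27 at 4 h (2.87e-05 at 4 h). It was also higher in KO by 1.98 at 2 h (0.0371) and 2.75 at 4 h, and in DKO by 2.30 at 4 h. It overlaps the opposite-strand gene Gm12534, which had 2218 reads. Socs3, which binds gp130 and dampens its signal, was higher in TKO by 2.20 at 1 h, 2.51 at 2 h (1.2e-04) and 1.52 at 4 h, and in KO by 2.07 at 2 h. Stat3, named after its values were seen, was called higher in 11 of 12 knockout against WT contrasts, by 1.24 in TKO at 1 h (limma, adjusted p = 1.45e-11).

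**Figure D5:**
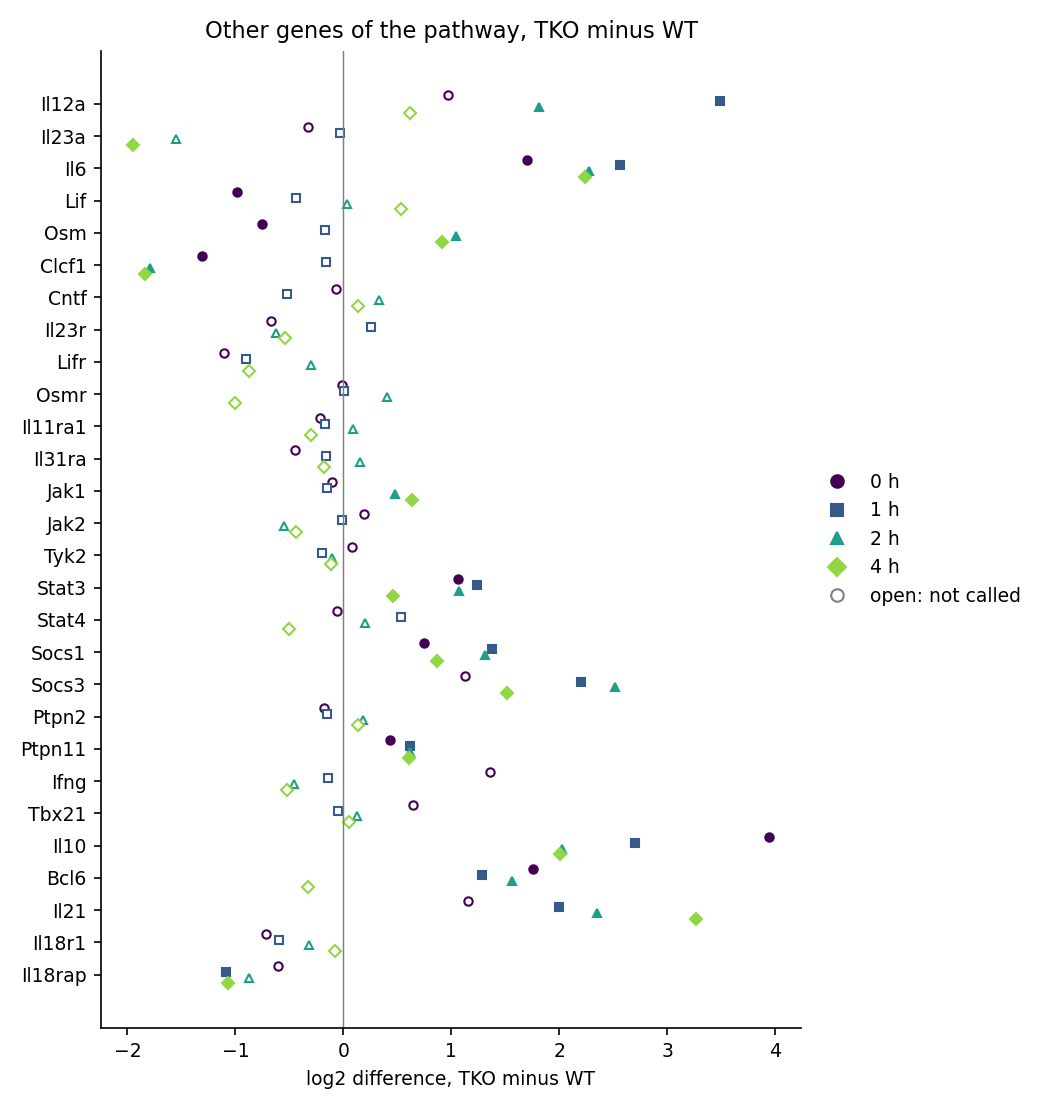
Difference of TKO from WT on the log2 scale for other pathway genes tested, by hours of restimulation, with filled symbols for called tests and open ones for tests not called (n = 4 libraries per group). Il10, Il12a and Il21 reach 3.94, 3.49 and 3.27, and Il23a lies at -1.95 at 4 h.

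Since Ebi3 is known from regulatory T cells, B cells and dendritic cells, their markers were read in the same libraries. The summed level of 5 regulatory T cell markers (Foxp3, Ikzf2, Il2ra, Ctla4 and Nrp1) at 0 h had medians of 1340 CPM in WT, 2209 in DKO, 2036 in KO and 2452 in TKO. Its defining gene Foxp3 went the other way at 0 h, with means of 20.2, 15.7, 8.66 and 9.28 CPM, while Ctla4 had means of 60.2, 423.9, 143.3 and 398.8 and Ikzf2 46.1, 145.6, 176.9 and 312.8. At 4 h the means of Foxp3 were 2.89 in WT, 6.93 in DKO, 4.48 in KO and 7.40 in TKO. Foxp3 was above 0 in every library. The B cell list summed to 0.9024 to 16.3 CPM in single libraries and the dendritic cell list, with 5 of its 6 genes in the table, to 0.9951 to 14.08. The part of these cells in the Ebi3 differences was not tested. Without the KO library highest in CD8 and B cell markers at each time, the 8 calls in KO against WT were again 8.

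The genes whose group means over the 16 groups were most like those of each gene are given as a description, with Pearson's r on the log2 scale. The groups share genotypes and times. For Ebi3 they were Bcam (0.982), Fam213a (0.979) and Hrsp12 (0.975). For Il12rb1 they were Thoc7 (0.953), Rxra (0.946) and Batf (0.94), and for Il12rb2 Slc35b3 (0.973), Ccni (0.97) and Klc3 (0.967). For Il27ra they were 1700086P04Rik (0.899), Mkln1os (0.897) and Msl1 (0.885). For Il6st they were Atp2b1 (0.986), Prkch (0.986) and Atxn7l1 (0.985), and for Il6ra Cux1 (0.983), Nlrc5 (0.979) and Gm13910 (0.978). Among the 6 genes themselves the highest r was 0.864, between Il12rb2 and Il6ra, which both fell at 4 h, and the lowest was -0.457, between Il27ra and Il6st.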

How the data were processed

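Total RNA of 64 libraries was sequenced. Trizol extraction and a NuGEN library kit are named in the labels' protocols, and the GRCm38 build in the submitters' processing notes. Which aligner, counter and strand setting served is not given in the sources used here.

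Per the file headers, the authors deposited for each group a list of 4 normalized counts (signal), their mean, a log2 fold change and a false discovery rate (an adjusted p-value) per comparison. These lists have no replicate numbers, and a place in a list pairs no libraries. The deposited means differed from the listed values' means by at most 0.049%. Low values were whole multiples of 1 step in every library (100% within a tolerance of 0.1 read), which gave the reads. The authors' own log2 fold changes and p-values were used only where named.

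Genes needed 10 reads at the median depth (1.3 CPM) in at least 4 libraries and 15 reads in all. Values were rescaled with trimmed-mean-of-M-values factors (0.772 to 1.23), and limma 3.58.1 (R 4.3.3; trended, robust) was fitted to log2(value + 1) with 1 mean per group (48 residual degrees of freedom) and 49 contrasts, tested on simulated data. P-values were 2-sided and adjusted by Benjamini-Hochberg over all genes of a contrast, and tests under 0.05 were called. Other scalings, filters, pseudocounts, a voom fit on the recovered reads, library sets as a block, only the groups compared, and each library left out were tried. A fit without 1 KO library per time was added after seeing the data. Named pathway genes were the 6 with the largest called difference from WT, plus Il27, Il12a and Il6. The 3 genes most like each gene were those with the highest r. The 6 genes and the lists were chosen with earlier results of these data known. Intervals and floors on reads cover counting error only. 1 gene of the pathway list and 1 marker gene are not reported singly here. Sequences came from RefSeq and GENCODE tables.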

Additional observations from a re-analysis of the deposited data

Results flagged for a closer look

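Of 96 groups of the 6 genes checked, 4 had 1 library far from the other 3 by Dixon's criterion. Chance flags about 1 in 20 groups. Il12rb1 was 249.1 normalized counts in 1 WT library at 4 h, and 194.2 to 199.5 in the others. Il12rb2 was 358.3 in 1 WT library at 4 h, and 710.2 to 759.1 in the others. Il6st was 1109 in 1 KO library at 0 h, and 569.8 to 645.7 in the others. Il6ra was 185.7 in 1 TKO library at 4 h, and 223.2 to 228.2 in the others.

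The change of Il6ra from 0 to 4 h differed between TKO and WT by 0.89 on the log2 scale, by the test of the difference itself. It was the 1 call of 78 interactions tested on the 6 genes, of which 54 compared a knockout's response with that of WT and 24 tested non-additivity.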

How the results depend on the processing

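No paired analysis was possible because the deposited lists carry no replicate numbers. Library sets found from the data were used as a block in another fit. They do not replace a pairing, and p-values from that fit may be too small. Of the 76 tests called for the 6 genes, 52 kept their call under every setting and with every library left out, and 24 lost it somewhere. Called tests had 863 values under other settings, of which 27 were no longer called, and 616 with 1 library left out, of which 41 were no longer called. No called test changed sign. Other scalings moved the median difference of all genes by -0.43 to 0.27 (deposited values), -0.16 to 0.07 (median of ratios), -0.42 to 0.13 (total reads) and -0.30 to 0.16 (upper quartile).

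The 8 calls in KO against WT were 5 with only the groups compared. The 1 call among responses against WT was 2 with a filter of 50 reads, 2 with voom and 3 with the sets as a block, and 1 to 3 with 1 library left out. The 0 calls of non-additivity were 2 on the deposited scaling, Ebi3 and Il27ra at 0 h. The causes were not tested. Il6st in KO at 4 h minus 0 h (-0.20, not called) ranged from -0.34 to 0.0132 with 1 library left out, and was positive without the KO library of 1109 at 0 h. In WT, depth limits Ebi3 to 19 to 38 reads per group.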
